A study of Sus scrofa with 16 samples.

Results

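The oligodendrocyte precursor and lineage genes examined in the hippocampus of preterm pigs were PDGFRA, CSPG4, OLIG1, OLIG2, SOX10, GPR17, ENPP6, NKX2-2, BCAS1 and MYRF, 10 genes named for their known place in the lineage and looked up by the pig Ensembl ID that carries each symbol. Of these, 6 genes were found, in 7 distinct entries among the 22815 distinct entries of the table, since the ID of OLIG2 held a pair of entries with different values. No row was found by symbol for SOX10, GPR17, NKX2-2 and MYRF, which were not analysed here. All 7 entries passed the filter on low values (an average over the 16 pigs that had to reach 0.5 FPKM), as did 13590 entries in all.

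Oligodendrocyte precursor cells carry the growth factor receptor PDGFRA and the proteoglycan NG2, the product of CSPG4, and divide in response to PDGF ligands released by neurons and astrocytes. OLIG1 and OLIG2 are transcription factors present from the precursor onwards, ENPP6 is a phosphodiesterase of newly forming oligodendrocytes, and BCAS1 marks early oligodendrocytes that begin to make myelin and remains in myelin afterwards. Around term, many oligodendrocytes of the brain are still in the precursor and early differentiating stages, and injury to this lineage is a known part of the white matter damage of preterm infants.

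RNA came from whole left hippocampi of caesarean-delivered preterm piglets of a Danish landrace, Large White and Duroc cross, reared in incubators on parenteral nutrition and increasing volumes of human donor milk, which lets necrotizing enterocolitis (NEC) arise spontaneously. The 5 No NEC pigs (2 female, 3 male) had no macroscopic lesion in any part of the gut, the 5 Co-NEC pigs (2 female, 3 male) had severe lesions in the colon alone, and the 6 Si-NEC pigs (3 female, 3 male) had severe lesions of the small bowel, whatever the state of the colon. The groups were thus defined by outcome and not by random assignment, and the litter of each pig was not in the labels. Values are FPKM (fragments scaled to transcript length and to the reads of the library), so that genes can be set against each other. The read depth behind each value is unknown. In whole tissue, fewer cells of a type and less RNA per cell cannot be told apart.

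A pair of libraries stood apart from the rest, the No NEC pig 230-15 and the Si-NEC pig 223-15. Their median correlation with the other pigs over all tested entries was 0.902 and 0.933, against 0.949 to 0.960 for the other 14 pigs, and their FPKM values summed to 864931 and 823320, against 544629 to 645197. Genes with the longest genomic span (in RefSeq, Sscrofa11.1) were lower relative to the shortest in these libraries, by 0.60 and 0.43 on the log2 scale between the top and bottom 20% of 7933 genes, where the difference in the other pigs ran from -0.23 to 0.14. The summed level of the 5 hippocampal and forebrain neuron markers found of 8 was 142 FPKM in pig 230-15 and 166 FPKM in pig 223-15, and 220 to 326 FPKM in the other pigs. A separate list of neuron markers, 6 found of 8, went the other way. Its sum was 2899 FPKM in pig 230-15 and 2436 FPKM in pig 223-15, and 1839 to 2323 FPKM in the other pigs. The first of these sums mainly follows CAMK2A, which averaged 194 FPKM in No NEC. There BCL11B averaged 18.6, GRIN2B 14.6, PROX1 7.26 and ZBTB20 4.55 FPKM. That sum therefore does not show whether its other markers moved alike. Most results that rest on these libraries are given with and without them.

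All 7 entries were above 0 FPKM in each of the 16 pigs. OLIG1 had the highest mean level, 188 ± 33.4 FPKM (SD, n = 16), above that of 97.1% of all tested entries. BCAS1 followed at 109 ± 26.5 FPKM and the first OLIG2 entry at 48.8 ± 11.01 FPKM. ENPP6 (16.6 ± 5.64 FPKM), the second OLIG2 entry (16.4 ± 11.2 FPKM) and PDGFRA (15.1 ± 4.19 FPKM) lay close together, and CSPG4 was lowest, at 5.48 ± 1.06 FPKM, above 35.7% of all tested entries.

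The upper steps of this order held within every pig. OLIG1 exceeded BCAS1, BCAS1 exceeded the first OLIG2 entry, and this entry exceeded ENPP6 in 16 of 16 pigs. The neighbours in the middle were less clearly ordered. ENPP6 was above the second OLIG2 entry in 10 of 16 pigs. That entry was above PDGFRA in only 4 of 16 pigs, although its mean over 16 pigs was higher. Without the libraries that stood apart, PDGFRA averaged 15.5, 18.0 and 15.2 FPKM in No NEC, Co-NEC and Si-NEC. The second OLIG2 entry then averaged 13.2, 13.2 and 11.5 FPKM, so that its higher mean over 16 pigs rested on those libraries. PDGFRA exceeded CSPG4 in 15 of 16 pigs, the exception being pig 230-15.

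**Figure D1:**
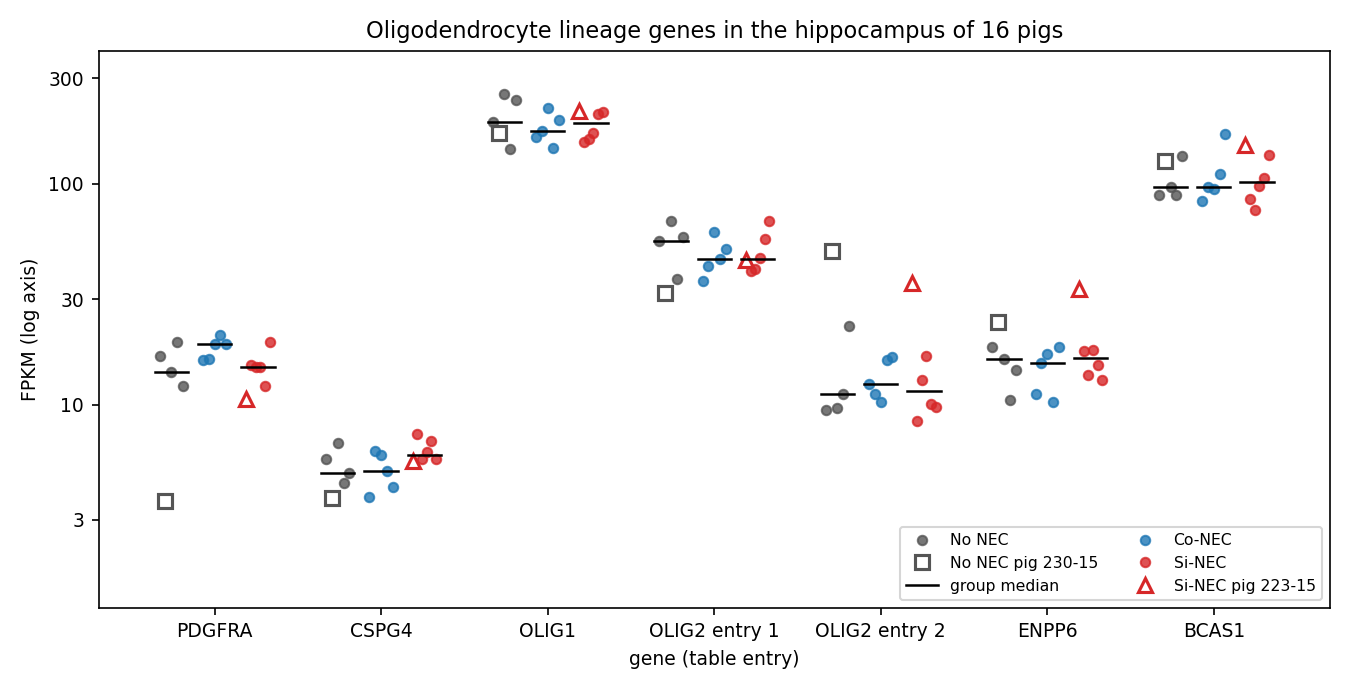
Level of each lineage gene entry (FPKM, log axis) in each of 16 pigs, by group; black bars are group medians, and open symbols mark the libraries that stood apart. The groups overlap for all 7 entries, and the open symbols are lowest for PDGFRA and highest for the second OLIG2 entry and ENPP6.

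The comparisons asked whether gut lesions in either location went with a different level of these genes in the hippocampus. Each pair of groups was tested with limma across all 13590 entries on the log2(FPKM + 0.5) scale, and the Benjamini-Hochberg adjusted p was held to 0.2, the threshold of the study's own tests. None of the 7 entries passed in any comparison. Over all tested entries, 0.00736% passed between Si-NEC and No NEC, 0.00736% between Co-NEC and No NEC and 0.0147% between Si-NEC and Co-NEC. At an unadjusted limma p of 0.05, 0 of the 7 entries passed in Si-NEC against No NEC, where 2.61% of all tested entries did, and 0 in Co-NEC against No NEC, where 3.44% did. In Si-NEC against Co-NEC 1 entry passed, PDGFRA, with 5.64% of all tested entries, and the exact permutation tests gave the same counts below 0.05. The groups overlapped for all 7 entries in all 3 comparisons, whereas 0.155%, 0.464% and 0.545% of all tested entries had groups that did not overlap. The median log2 fold change of the 7 entries was 0.01, -0.05 and 0.06 in the 3 comparisons, beside 0.02, 0.01 and 4.8e-05 over all tested entries.

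**Figure D2:**
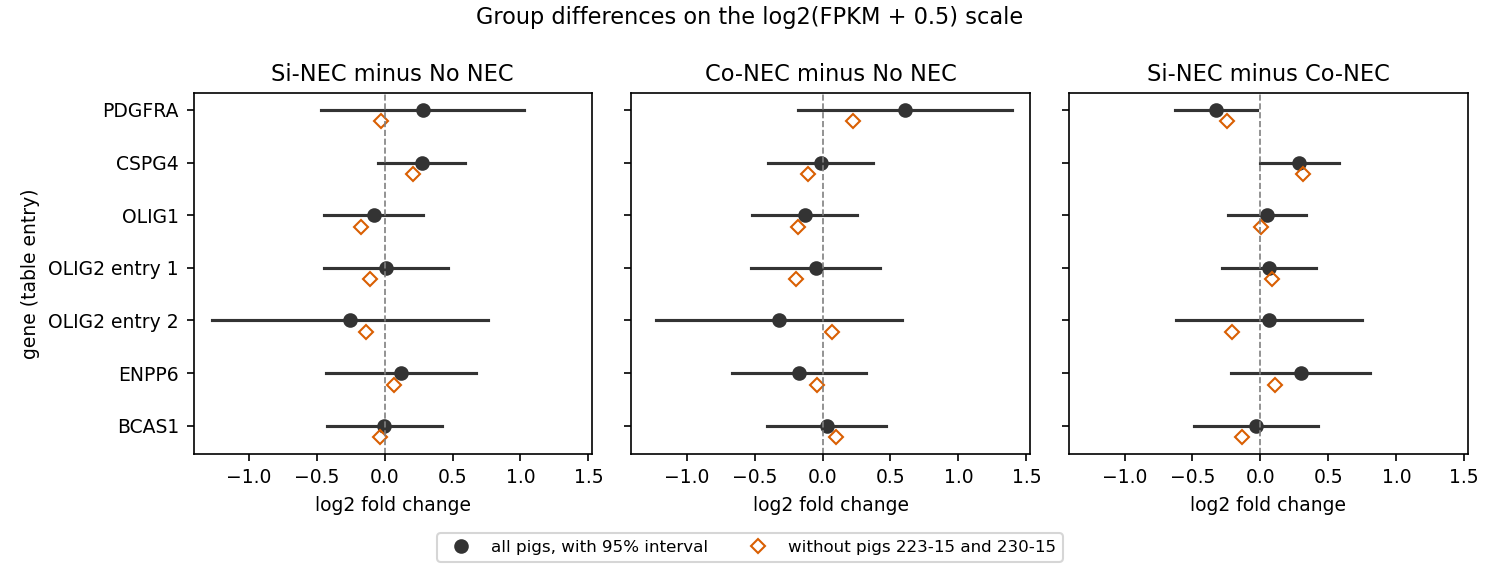
Log2 fold change of each entry on the log2(FPKM + 0.5) scale in the 3 comparisons, with the 95% interval from limma (filled points) and the value without pigs 223-15 and 230-15 (open diamonds). All intervals but that of PDGFRA in Si-NEC against Co-NEC include 0.

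PDGFRA, the receptor through which PDGF drives precursor division, was measured at 16.6, 3.67, 14.1, 19.1 and 12.2 FPKM in the No NEC pigs and at 15.9, 16.02, 18.7, 20.6 and 18.7 FPKM in the Co-NEC pigs. Among Si-NEC pigs the lowest value was 10.5, the median 14.8 and the highest 19.2 FPKM. The Co-NEC pigs formed a narrow band, 5 of 6 Si-NEC pigs lay below every Co-NEC pig, and the highest Si-NEC pig lay within their range. The log2 fold change of Si-NEC against Co-NEC was -0.33 (SE 0.14, 95% interval -0.63 to -0.02, a ratio of 0.647 to 0.983), with an adjusted limma p of 0.867 and an exact two-sided permutation p of 0.0390. The adjusted p missed the threshold, and the difference was -0.24 without pig 223-15. The pig numbers end in 14 or 15. Within numbers ending in 14 the difference was -0.35 (2 against 2 pigs), and within those ending in 15 it was -0.29 (4 against 3). It was -0.37 in females (3 against 2) and -0.27 in males (3 against 3). Pig 223-15, the lowest Si-NEC pig, is female and its number ends in 15. The values of those subsets were computed only with it.

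The SD of PDGFRA in No NEC was 5.90 FPKM with pig 230-15 and 3.02 FPKM without it. Its 3.67 FPKM was far below the next lowest value of any pig, 10.5 FPKM in pig 223-15. The log2 fold change of Co-NEC against No NEC was 0.61 (SE 0.36, 95% interval -0.18 to 1.39, exact permutation p = 0.103), and 0.22 without pig 230-15. For Si-NEC against No NEC it was 0.28 (SE 0.34, 95% interval -0.47 to 1.03, exact permutation p = 0.636), and -0.11 without pig 230-15, so that the sign of this difference rests on that pig.

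CSPG4, the second surface marker of precursor cells, which mural cells of vessels also carry, was measured at 5.68, 3.76, 6.73, 4.43 and 4.88 FPKM in No NEC pigs and at 3.83, 6.17, 5.92, 4.99 and 4.23 FPKM in Co-NEC pigs. Its Si-NEC values ran from 5.54 through a median of 5.88 to 7.37 FPKM. The lowest Si-NEC pig was above 3 of 5 pigs of each other group, and the upper ends of the groups overlapped. Si-NEC against Co-NEC gave a log2 fold change of 0.29 (SE 0.13, 95% interval -0.0026 to 0.58, exact permutation p = 0.0584) and Si-NEC against No NEC 0.27 (SE 0.15, 95% interval -0.05 to 0.59, exact permutation p = 0.0758), with adjusted limma p of 0.867 and 1.0. In males these differences were 0.43 and 0.43, and in females 0.05 and 0.02. The Co-NEC and No NEC means were 5.03 ± 1.02 and 5.10 ± 1.15 FPKM (SD, n = 5 each).

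The level of PDGFRA relative to CSPG4 varied from pig to pig. The ratio of their FPKM values was 4.16, 2.60, 3.16, 4.12 and 4.43 in the Co-NEC pigs and 2.92, 0.975, 2.09, 4.32 and 2.50 in the No NEC pigs, and it ran from 1.77 through a median of 2.24 to 3.40 in the Si-NEC pigs. The Co-NEC pigs thus lay towards the upper end and the Si-NEC pigs towards the lower end, with overlap. These ratios were formed after both genes had been seen and were not tested.

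**Figure D3:**
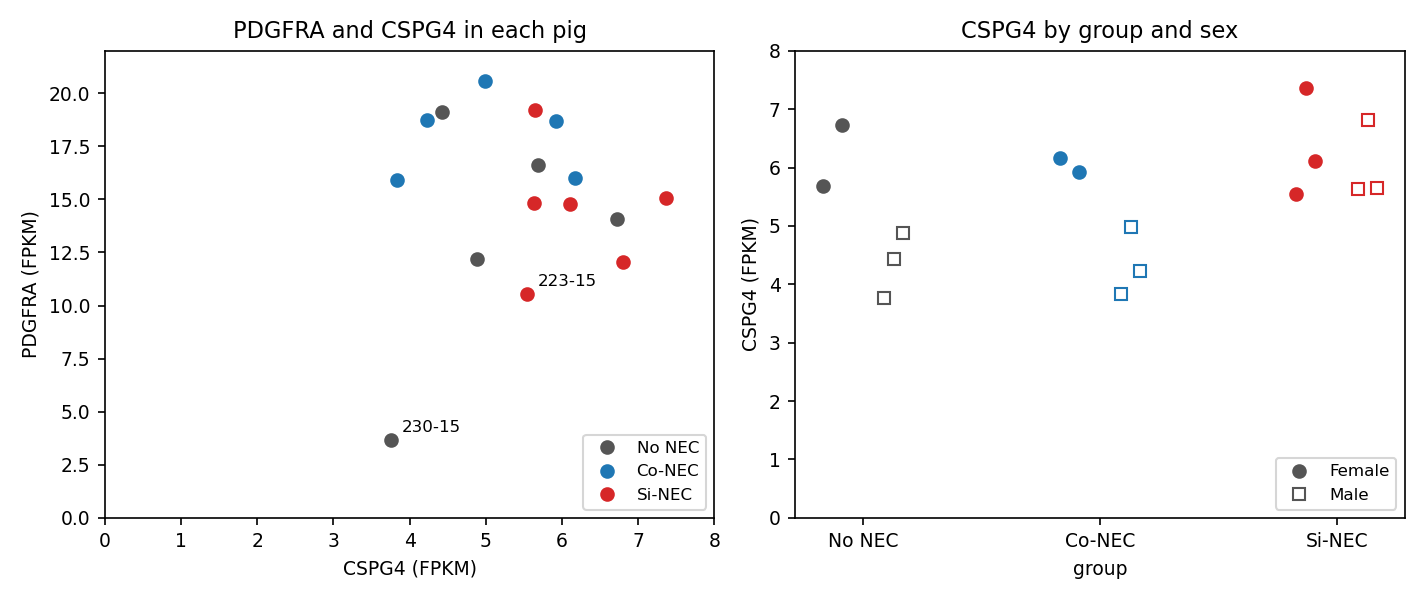
Left, PDGFRA against CSPG4 (both in FPKM) in each of 16 pigs, coloured by group, with the libraries that stood apart named. Right, CSPG4 (FPKM) by group and sex; females (filled) lie above males (open) in No NEC and Co-NEC and overlap with them in Si-NEC.

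CSPG4 was also the member that differed most between the sexes relative to its error. Females had 6.22 ± 0.636 FPKM (SD, n = 7) and males 4.91 ± 0.991 FPKM (SD, n = 9), a log2 difference of 0.30 (SE 0.10) with group in the limma fit, at an unadjusted p of 0.00934 and an adjusted p of 0.99995. In the No NEC and Co-NEC groups both females were above all 3 males, while in Si-NEC the males, at 5.64, 5.65 and 6.81 FPKM, overlapped with the females, at 5.54, 6.11 and 7.37 FPKM. ENPP6 was 19.3 ± 6.29 FPKM in females and 14.4 ± 4.24 FPKM in males (log2 difference 0.39, SE 0.18), with an adjusted p of 0.99995 in limma. No member passed the adjusted threshold between the sexes, where 0.0515% of all tested entries did and 3.25% passed unadjusted.

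Whether the group differences themselves differed by sex was tested as an interaction. For Si-NEC against No NEC the first OLIG2 entry gave an interaction of -0.88 (SE 0.36) and the second 1.88 (SE 0.83), both below 0.05 unadjusted in limma and with an adjusted limma p of 0.439. Without pigs 223-15 and 230-15 these interactions were -0.72 (SE 0.37) and 0.83 (SE 0.51), a fit added after the data were seen, so that the size of the second rests on those pigs. With 2 or 3 pigs in each cell, 10.8% of all tested entries passed unadjusted in this interaction and 0.00736% passed the adjusted threshold, as did 0.00736% between Si-NEC and Co-NEC and 0.0% between Co-NEC and No NEC. None of the 7 entries passed the adjusted threshold in any of the 3 interactions.

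OLIG1 and OLIG2 encode related transcription factors that specify the lineage, and the RefSeq annotation of the pig (Sscrofa11.1) places no protein-coding gene between them. OLIG1 was measured at 190, 169, 254, 144 and 238 FPKM in No NEC pigs and at 163, 173, 221, 146 and 195 FPKM in Co-NEC pigs, and ran from 155 through a median of 188 to 214 FPKM in Si-NEC pigs. The No NEC pigs held both the highest and the lowest value, and the other groups lay within their range. The log2 fold change was -0.08 for Si-NEC against No NEC (95% interval -0.44 to 0.28), -0.13 for Co-NEC against No NEC (-0.52 to 0.26) and 0.05 for Si-NEC against Co-NEC (-0.24 to 0.34).

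The first OLIG2 entry was measured at 55.2, 31.9, 67.6, 37.2 and 57.6 FPKM in No NEC pigs and at 36.2, 42.5, 60.5, 45.5 and 50.8 FPKM in Co-NEC pigs, and ran from 40.0 through a median of 45.6 to 67.8 FPKM in Si-NEC pigs. The pigs high or low in OLIG1 were largely the ones high or low in this entry. In the order used for OLIG1, the log2 fold changes were 0.01, -0.05 and 0.06, with 95% intervals of -0.44 to 0.47, -0.52 to 0.43 and -0.28 to 0.41.

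The second OLIG2 entry behaved differently. It was measured at 9.48, 49.5, 9.63, 11.1 and 22.7 FPKM in No NEC pigs, where 49.5 FPKM belongs to pig 230-15, and at 12.4, 11.2, 10.3, 15.8 and 16.4 FPKM in Co-NEC pigs. In Si-NEC pigs it ran from 8.43 through a median of 11.5 to 35.6 FPKM, the last in pig 223-15. The libraries that stood apart thus held the highest values, 4.44 and 3.19 times the median of the other 14 pigs, while the first entry was lowest of all pigs in pig 230-15 and 0.927 times that median in pig 223-15. Within a pig, the second entry was 0.142 to 0.393 of the first in the other 14 pigs, 0.792 in pig 223-15 and 1.55 in pig 230-15. In the same order, its log2 fold changes were -0.26, -0.32 and 0.06, and -0.13, 0.07 and -0.21 without both pigs. What distinguishes the entries under the ID of OLIG2 is not given in the sources used here. Their sum was 64.9 ± 12.7 FPKM in Si-NEC (SD, n = 6), 60.3 ± 9.20 FPKM in Co-NEC and 70.4 ± 14.0 FPKM in No NEC (SD, n = 5 each), with exact permutation p of 0.254 to 0.548 between groups.

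ENPP6, of newly forming oligodendrocytes, was measured at 18.3, 23.5, 16.04, 10.5 and 14.3 FPKM in No NEC pigs and at 11.2, 15.4, 16.97, 10.3 and 18.3 FPKM in Co-NEC pigs, and ran from 12.96 through a median of 16.3 to 33.4 FPKM in Si-NEC pigs. Its highest values were again those of pigs 223-15 and 230-15, and the other 14 pigs lay between 10.3 and 18.3 FPKM with the groups intermixed. The log2 fold change was 0.12 for Si-NEC against No NEC (95% interval -0.43 to 0.67), -0.18 for Co-NEC against No NEC (-0.67 to 0.32, and -0.039 without pig 230-15) and 0.30 for Si-NEC against Co-NEC (-0.22 to 0.81), the last 0.11 without pig 223-15.

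BCAS1, the member nearest to myelination, was measured at 88.9, 127, 96.2, 89.1 and 134 FPKM in No NEC pigs and at 83.8, 97.1, 94.9, 111 and 168 FPKM in Co-NEC pigs, and ran from 76.0 through a median of 102 to 150 FPKM in Si-NEC pigs. The low and the high ends of the 3 groups overlapped widely, and the highest value was that of the Co-NEC pig 552-14. In the same order, the log2 fold changes were -0.00086, 0.03 and -0.03, with 95% intervals of -0.42 to 0.42, -0.41 to 0.47 and -0.49 to 0.42.

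The intervals show what these group sizes leave undecided. For OLIG1, the most precisely measured of the abundant members, the ratio of Si-NEC to No NEC lay between 0.736 and 1.22, and for BCAS1 between 0.746 and 1.34. For the second OLIG2 entry the corresponding limits were 0.414 and 1.70. The within-group SD on the log2 scale was 0.24 for CSPG4, 0.26 for OLIG1, 0.34 for the first OLIG2 entry, 0.35 for BCAS1, 0.43 for ENPP6, 0.53 for PDGFRA and 0.74 for the second OLIG2 entry, beside a median of 0.29 over all tested entries.

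The members did not vary as a block between pigs. Over 16 pigs of 3 groups, given as a description, OLIG1 and the first OLIG2 entry were the pair most alike, with a Pearson's r of 0.80 on the log2 scale, 0.89 over the 14 pigs without 223-15 and 230-15 and 0.81 with the group means removed. Their FPKM ratio stayed between 3.11 and 5.30. PDGFRA went against the second OLIG2 entry (r = -0.75) and ENPP6 (r = -0.57), and these values were -0.12 and -0.31 over the 14 pigs. PDGFRA and CSPG4, both precursor markers, had an r of 0.27 over 16 pigs and -0.40 over 14 pigs. All pigs share the scaling of the table, and values from 1 library are not independent of each other.

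**Figure D4:**
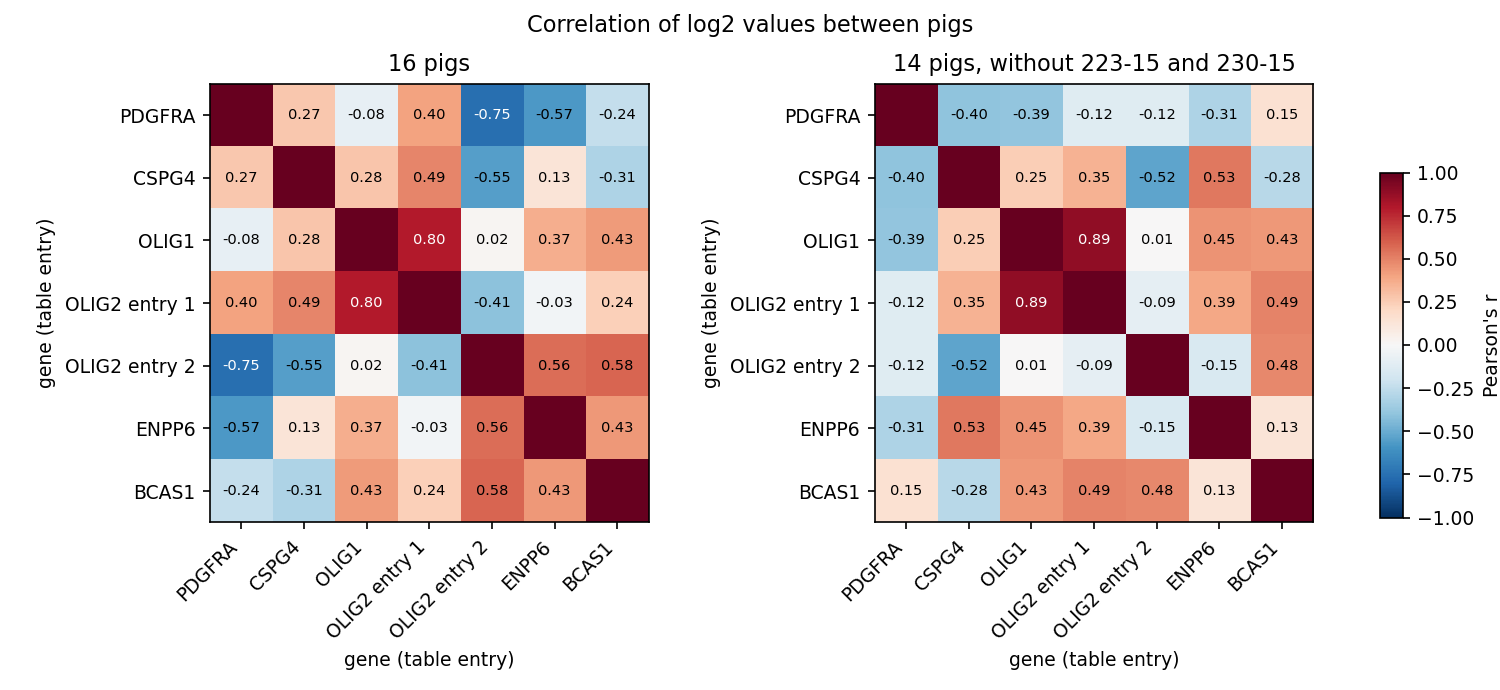
Pearson's r between the log2 values of the 7 entries over 16 pigs (left) and over the 14 pigs without 223-15 and 230-15 (right). OLIG1 and the first OLIG2 entry are alike in both panels (0.80 and 0.89), whereas the negative values of PDGFRA with the second OLIG2 entry and ENPP6 shrink in the right panel.

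BCAS1 varied with the genes of mature myelin. Of 16 myelin genes listed, 10 were found, in 11 tested entries, and 10 of these 11 had an r above 0.5 with BCAS1 over 16 pigs (median 0.65), beside 5.06% of all tested entries (median 0.08). Over the 14 pigs the count was 9 of 11 (median 0.75), beside 4.28% of all tested entries (median 0.0084). With the summed myelin FPKM, r was 0.94 over 16 and 0.95 over 14 pigs. The entry most like BCAS1 over all pigs was CLDN11, a tight junction protein of myelin (r = 0.92). OLIG1 and the first OLIG2 entry had 6 and 7 of the 11 myelin entries above 0.5 over the 14 pigs, where 11.03% and 12.2% of all tested entries were, but 4 and 2 over all 16, where 3.44% and 8.43% were. The second OLIG2 entry had 5 of 11 over 16 pigs, beside 29.8% of all tested entries, and 0 over the 14 pigs, beside 6.24%. ENPP6 had 2 of 11 over 16 pigs, beside 20.0%, and 0 over the 14 pigs, beside 2.63%. PDGFRA had none above 0.5 over 16 or 14 pigs, where 19.4% and 12.1% of all tested entries were. CSPG4 had none either, beside 5.56% and 7.10%.

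**Figure D5:**
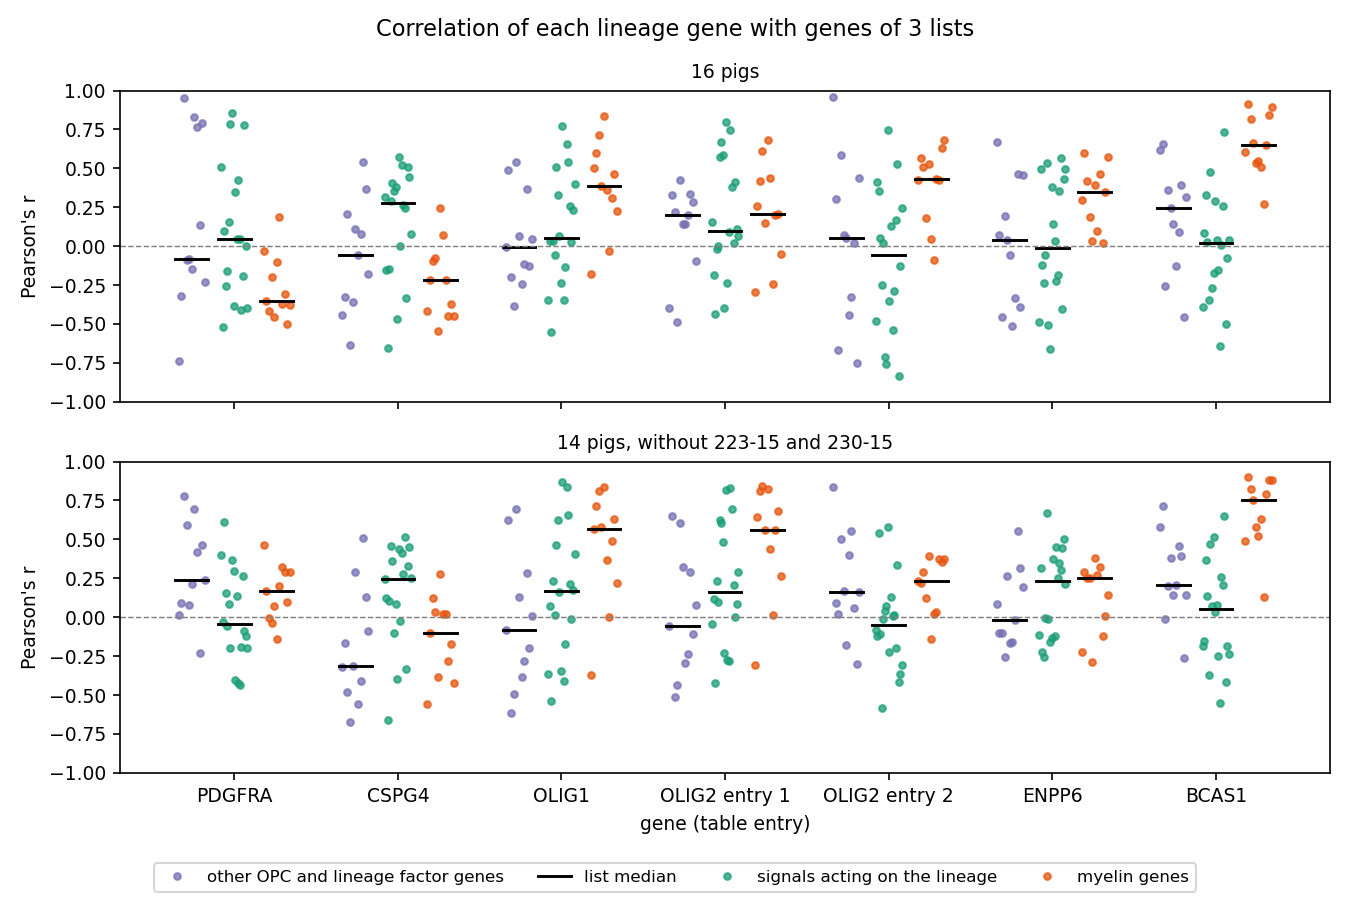
Pearson's r of each lineage gene entry with each tested gene of 3 lists (points; bars are list medians) over 16 pigs (top) and 14 pigs (bottom). The myelin genes lie highest for BCAS1, with a median of 0.65 and 0.75.

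Among all tested entries with a symbol, those whose level most resembled the mean of the 7 standardised member entries over 16 pigs included ZYX (r = 0.87), ANGPTL2 (0.82), FGFR2 (0.80) and PLXNB3 (0.80). FGFR2 is a fibroblast growth factor receptor of the oligodendrocyte lineage and PLXNB3 a semaphorin receptor. Over the 14 pigs their r was 0.75 to 0.89. In the ranking over 16 pigs, the first OLIG2 entry was most like ABL1, a tyrosine kinase (r = 0.93 and 0.95 over 16 and 14 pigs), the second most like FYN, a kinase active in oligodendrocyte differentiation (0.96 and 0.83), and CSPG4 most like RGCC (0.89 and 0.87). Over the 14 pigs other entries were more like CSPG4 than RGCC. After FYN, the second OLIG2 entry was most like ZNF79 and HNRNPD (0.94 each over 16 pigs). The same entry went with the summed neuron markers (r = 0.82 and 0.49). In the ranking over 16 pigs PDGFRA was most like GIGYF2 (0.97 and 0.84) and ENPP6 most like NUCB1 (0.88 and 0.75). CSPG4 also went against the summed neuron markers (r = -0.70 and -0.68) and with the summed mural cell markers (0.54 and 0.55, from 7 tested entries, with MYH11 listed at 0 in every pig), whose group ranges were 40.8 to 53.9 FPKM in No NEC, 35.0 to 55.2 in Co-NEC and 41.9 to 66.3 in Si-NEC. With the summed other precursor and lineage factor genes, listed below, the r of CSPG4 was -0.55 and -0.53. Of all tested entries, 5.56% and 7.10% had an r above 0.5 with CSPG4. The part of mural cells in the level of CSPG4 was not tested.

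Further genes of the lineage came from 3 lists. Of 21 other precursor and lineage factor genes 11 were found and tested, of 28 genes of signals acting on the lineage 20 were found and 18 tested, and of the myelin genes 11 entries were tested as above. None passed the adjusted threshold in any comparison in limma. At an unadjusted p of 0.05, the Si-NEC against Co-NEC comparison had 3 of 11 precursor and lineage factor genes lower and 0 higher, beside 2.4% of all tested entries lower, with a list median of -0.13. These were PTPRZ1, a receptor phosphatase of precursors and astrocytes, at 57.4 ± 10.24 against 72.7 ± 7.75 FPKM (log2 fold change -0.35, SE 0.12), ITPR2, a calcium channel of differentiating precursors, at 3.33 ± 0.476 against 4.39 ± 0.523 FPKM (-0.35, SE 0.12), and MATN4, a matrix protein of precursors, at 0.818 ± 0.401 against 1.65 ± 0.732 FPKM (-0.68, SE 0.26), all with n = 6 against 5. Their adjusted limma p was 0.851 to 0.864. PDGFRA, above, had the same sign in this comparison, whereas CSPG4 had the opposite sign (0.29). The genes with that shared sign are not all independent of each other. Over 16 pigs PDGFRA had an r of 0.95 with ITPR2, 0.83 with PTPRZ1 and -0.08 with MATN4. Over the 14 pigs these were 0.78, 0.69 and 0.08. Of the 7 member entries, 5 had a log2 fold change above 0 here.

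Against No NEC, MATN4 was the gene of this list with the smallest p in Si-NEC (0.818 ± 0.401 against 1.89 ± 0.720 FPKM, log2 fold change -0.84, SE 0.27, exact permutation p = 0.0238, adjusted limma p = 1.0), where 1.02% of all tested entries were lower at 0.05 unadjusted. MATN4 ran from 0.41 to 1.54 FPKM in Si-NEC, near the 0.5 FPKM of the filter and of the value added before the logarithm. The counting error of such low values is unknown. Next by p in this comparison were TCF7L2, a transcription factor of differentiating oligodendrocytes (0.28, and 0.18 without pigs 223-15 and 230-15), and LUZP2 (-0.15). In Co-NEC against No NEC the smallest p values belonged to TNR, the matrix protein tenascin-R (0.24), PTPRZ1 (0.31) and ITPR2 (0.58), none below 0.05 unadjusted, and these values were 0.14, 0.15 and 0.25 without both pigs. The values in Co-NEC and Si-NEC share the No NEC pigs as reference.

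Of the signals, BMP4, a ligand that holds precursors back from differentiation, was the only one whose groups did not overlap in any comparison. It was 3.58 ± 0.378 FPKM (range 3.18 to 4.182, n = 5) in Co-NEC and 5.25 ± 1.07 FPKM (range 4.192 to 6.63, n = 5) in No NEC. The log2 fold change was -0.48 (SE 0.14), with an adjusted limma p of 0.812 and an exact permutation p of 0.00794, the smallest that 5 against 5 pigs allow. The gap between the groups was narrow, 0.228% of all tested entries lay apart in this direction, and 1.32% were lower at 0.05 unadjusted. Si-NEC pigs had 4.08 ± 0.967 FPKM (n = 6), a log2 fold change against No NEC of -0.34 (SE 0.18). The other signals with the smallest p values had log2 fold changes of 0.25 for the growth factor IGF1 and -0.23 for the Notch ligand DLL1 in Si-NEC against No NEC, -0.15 for DLL1 and 0.28 for SHH in Co-NEC against No NEC, and -0.18 for BMPR1A, 0.15 for ID4 and -0.21 (-0.34 without both pigs) for PDGFC in Si-NEC against Co-NEC, all above 0.05 unadjusted. PDGFA, the main ligand of PDGFRA, was 21.3 FPKM on average in Si-NEC and 20.2 FPKM in Co-NEC, a log2 fold change of 0.10. IGF1R was listed at 0 in every pig.

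Of the myelin genes, OPALIN, a membrane protein of mature oligodendrocytes, was the only one below 0.05 unadjusted in limma. In Si-NEC, 1.02% of all tested entries were lower at that level against No NEC and 2.4% against Co-NEC. The exact permutation p of OPALIN was 0.0541 and 0.0758 in these comparisons. Its level was 32.4 ± 10.96 FPKM in Si-NEC, with a log2 fold change of -0.67 (SE 0.27) against No NEC and -0.56 (SE 0.24) against Co-NEC, at adjusted limma p of 1.0 and 0.867. Without both libraries that stood apart, the OPALIN log2 fold changes were -0.50 against No NEC and -0.57 against Co-NEC. The paper's own test of these libraries called OPALIN lower in Si-NEC than in No NEC, at its threshold of 0.2. The paper also reported OPALIN lower in Si-NEC by qPCR in a larger set of pigs. In Si-NEC against Co-NEC 10 of 11 myelin entries had a negative log2 fold change. Their list median was -0.12, beside 4.8e-05 over all tested entries. The entries, which count MOG more than once, are not independent of each other. The other myelin genes with the smallest p values were GJB1 (-0.59) and PLLP (-0.23, and -0.14 without both pigs) in Si-NEC against No NEC, ASPA (0.30), GJB1 (-0.26, and -0.075 without both pigs) and the first MOG entry (0.25) in Co-NEC against No NEC, and GJB1 (-0.34) and FA2H (-0.18) in Si-NEC against Co-NEC. BCAS1, which varied with the myelin genes between pigs, had a log2 fold change of -0.03 in the last comparison.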

How the data were processed

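Total RNA of 16 left hippocampi was sequenced as paired reads. Per the labels and the study's methods, the authors trimmed the reads, aligned them to Sscrofa10.2 with TopHat2 2.1.1 and estimated FPKM per gene with Cufflinks 2.2.1; the deposited table holds these FPKM values, without counts, so that the depth of a sample and the counting error of a value are unknown and precision comes from the spread between pigs. An exact 0 may be a failed estimate. Symbols came from an Ensembl ID table, which named 11001 of 21956 IDs.

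Identical repeated entries (1779) were dropped. All those averaging 0.5 FPKM or more were tested on log2(FPKM + 0.5) with limma 3.58.1 (lmFit, eBayes with trend), each pair of groups alone, in R 4.3.3. Two-sided exact permutation tests of each member and each tested gene of the lists were computed with numpy 2.4.6. The sex fit used all pigs with group as covariate. Benjamini-Hochberg adjustment ran over all 13590 entries tested. limma was also tested on simulated data.

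The members and lists were chosen with earlier results of these data known. All members were named; from each of 3 lineage lists, genes past the threshold and the 3 smallest p values per comparison; and the 5 entries most correlated with the members' mean. Some values these rules call for are not reported here. The further genes named as most like 1 member, PDGFA, and the PDGFRA to CSPG4 ratio were chosen after their values were seen. Alternatives were other pseudocounts, filters, scaling, covariates, variance models, weights, thresholds and pigs left out; the sum of the OLIG2 entries was added after seeing the data. Lists of astrocyte, microglia, endothelial, fibroblast, choroid plexus, blood and cell division genes were also summed; no entry of them passed the adjusted threshold.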

Additional observations from a re-analysis of the deposited data

Results flagged for a closer look

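In 21 groups of values (7 entries in 3 groups of pigs), 2 single pigs lay far from the rest of their group by Dixon's criterion, which chance meets in about 1 of 20 groups. PDGFRA was 3.67 FPKM in the No NEC pig 230-15, where the other No NEC pigs had 12.2 to 19.1 FPKM. ENPP6 was 33.4 FPKM in the Si-NEC pig 223-15, where the other Si-NEC pigs had 12.96 to 17.7 FPKM. These pigs are the libraries that stood apart over all entries, and what sets them apart was not tested.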

How the results depend on the processing

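0 of the 7 entries passed in the 3 group comparisons and between the sexes under every alternative run, array weights included, under which 201 entries passed in Si-NEC against Co-NEC in place of 2. No paired analysis was possible because the pig numbers in the labels are not shared between groups. The median log2 fold change of the members in Si-NEC against No NEC was -0.17 with array weights in place of 0.01.

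These signs turned, and the cause was not tested beyond the pigs left out. In Si-NEC against No NEC, BCAS1 was 0.0093 with sex and 0.012 with the pig number ending as covariate, the first OLIG2 entry was -0.17 with array weights, -0.11 without both pigs and -0.11 as the sum of the entries, and PDGFRA was -0.023 without both pigs. The second OLIG2 entry was 0.073 in Co-NEC against No NEC without both pigs, and -0.21 in Si-NEC against Co-NEC both with array weights and without them. Between females and males, BCAS1 was 0.10 with the number ending, the first OLIG2 entry -0.0060 and PDGFRA -0.045 with array weights, and PDGFRA -0.032 without both pigs. Correlations that turned without both pigs were PDGFRA with CSPG4 (-0.40), the first OLIG2 entry (-0.12) and BCAS1 (0.15), and ENPP6 with the first (0.39) and second (-0.15) OLIG2 entries.

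Leaving out each pig in turn, log2 fold changes that turned in Si-NEC against No NEC ran from -0.13 to 0.14 for the first and -0.53 to 0.14 for the second OLIG2 entry, -0.19 to 0.016 for OLIG1, -0.064 to 0.26 for ENPP6, -0.10 to 0.092 for BCAS1 and -0.11 to 0.45 for PDGFRA. In Co-NEC against No NEC they ran from -0.20 to 0.073 and -0.51 to 0.073 for the OLIG2 entries, -0.13 to 0.12 for BCAS1 and -0.11 to 0.084 for CSPG4. In Si-NEC against Co-NEC they ran from -0.033 to 0.16 and -0.21 to 0.20 for the OLIG2 entries, -0.021 to 0.13 for OLIG1 and -0.13 to 0.13 for BCAS1. PDGFRA in the last comparison kept its sign, from -0.41 to -0.24, and CSPG4 in Si-NEC kept its sign against both groups. FPKM values carry no depth, so the counting error of the lower members, CSPG4 above all, is unknown.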
